A study of Nothobranchius furzeri with 18 samples.

Results

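Genes for integrins, cadherins and the proteins of cell junctions were followed across 3 genotypes of cultured killifish tail fibroblasts. The members were chosen by name. They are the columns of the count table whose names begin like an alpha or beta integrin, a cadherin, a protocadherin, a claudin, a connexin, a tight junction protein, a nectin, a catenin, vinculin, talin, zyxin or a focal adhesion kinase, together with LOC107383010, which RefSeq names ctnnd2a. This gave 71 of the 25099 genes in the table. By name they fell into 9 alpha integrins, 7 beta integrins, 5 focal adhesion plaque genes, 15 cadherins, 7 protocadherins, 2 nectins, 8 catenins, 3 tight junction plaque genes (tjp), 7 claudins and 8 connexins. The name alone brought in 5 of them, namely itgbl1, itgb1bp1, ctnnal1, ctnnbip1 and ctnnbl1, which are not themselves integrin chains or members of the alpha, beta or delta catenins. Of the 71 genes, 45 had enough reads to be tested and 26 did not.

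Cells hold on to the matrix around them through integrins, receptors built from paired alpha and beta chains, whose inner ends are tied to actin by talin and vinculin and signal through focal adhesion kinase. They hold on to each other through cadherins, whose inner ends bind catenins. Nectins, claudins and connexins serve further kinds of cell contact, and tjp proteins form the scaffold under tight junctions. Connective tissue fibroblasts are known for matrix contacts and for N-cadherin and cadherin 11, while E-cadherin and most claudins mark epithelia. The roles given below for single genes are those known from mammals.

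The cells were primary fibroblasts grown from tails of Nothobranchius furzeri, the African turquoise killifish, whose life is short. The genotypes were wild type (WT) and homozygous mutants of exon 1 or of exon 3 of vgll3, a cofactor of TEAD transcription factors. Polyadenylated RNA was sequenced in 18 libraries, and those of the exon 1 mutant have KD in their names and those of the exon 3 mutant null. A and B at the end of a name mark technical replicates, whose counts were added up, and each such sum is called a culture here. This left 3 exon 1 mutant cultures (3, 4 and 6), 3 exon 3 mutant cultures (1, 3 and 4) and 4 WT cultures (F1, F9, F4 and FM). F1 and F9 had no A or B and were each taken as a culture. Nothing in the labels ties the cultures of a genotype to different fish, and the p-values therefore measure a spread between samples that may be technical. No other allele or treatment is named for any group.

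Library totals ran from 15236208 to 28146560 counts. Levels are given in CPM, counts scaled to the total of the culture. Over the WT cultures the edited gene vgll3 held 262 to 333 CPM, against 206 to 266 CPM for exon 1 and 99.9 to 119 CPM for exon 3 cultures. Of 19 fibroblast marker names, 10 were in the table. Their summed level was 3858 to 4509.8 CPM in WT, 3893 to 6637 CPM in the exon 1 mutant and 3855 to 7511 CPM in the exon 3 mutant, but vim stayed under 1 CPM and postn was at or near 0 in every culture. In the epithelial list, 4 of the 6 genes present were under 1 CPM in every culture, cdh1 and cldn1 among them, as were 4 of 5 endothelial and 3 of 4 blood and immune genes. The summed epithelial level was 3.55 to 6.24 CPM in WT, 4.51 to 7.96 CPM in the exon 1 mutant and 4.93 to 6.37 CPM in the exon 3 mutant. Of 8 osteoblast names, sp7 and alpl were in the table, and their sum was 113.5 to 209.97 CPM in WT, 216 to 654 CPM in the exon 1 mutant and 273 to 1341 CPM in the exon 3 mutant. Nearly all of that sum was alpl. Levels of sp7 alone were 0.392 to 1.98 CPM in WT and 0.846 to 2.09 CPM in the exon 1 mutant. Of the exon 3 cultures, culture 1 held 0.525 CPM of sp7 and culture 4 held 4.98 CPM. Exon 3 culture 3 stood apart in these, with sp7 at 51.7 CPM against at most 4.98 CPM elsewhere. It also had the highest sum of the 3 pigment cell markers in the table, of which tyr and sox10 stayed under 1 CPM in every culture. That sum was 113 CPM in exon 3 culture 3, 29.8 CPM in culture 4 and 6.34 CPM in culture 1, against 5.82 to 13.6 CPM in WT and 2.89 to 5.58 CPM in the exon 1 mutant. In such bulk RNA, fewer cells of a type and less RNA per cell cannot be told apart.

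No member passed the test in any comparison. The members nearest to it were itga9, an integrin chain whose cultures were below WT in both mutants, and ctnnd2a, a delta catenin whose cultures were below WT in the exon 1 mutant and above WT in the exon 3 mutant. Genes were tested with edgeR (quasi-likelihood F test) over all 16354 genes with enough reads, at a Benjamini-Hochberg adjusted p under 0.05. In the exon 1 mutant against WT, 0 of 45 members passed, against 0.159% of all genes tested. For the exon 3 mutant against WT the count was again 0 of 45, against 0.238% of all genes. Between the mutants it was 0 of 45, against 0.0122%. At these shares fewer than 1 gene in 45 would be called, so a count of 0 does not set the members apart. The smallest adjusted p of a member was 0.11 in the exon 1 mutant and 0.13 in the exon 3 mutant, both for itga9, and 0.159 between the mutants, for ctnnd2a.

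With less strict rules there were more. At an unadjusted p under 0.05 there were 10 of 45 members in the exon 1 mutant against WT, beside 8.48% of all genes. The same rule gave 12 of 45 in the exon 3 mutant against WT, beside 12.3% of all genes, and 10 of 45 between the mutants, beside 8.48%. DESeq2, another count test, called 3 members in the exon 1 mutant against WT, where it called 1.55% of all genes. It called 4 in the exon 3 mutant against WT, beside 3.1% of all genes, and 5 between the mutants, beside 1.06%. Both comparisons with WT share the WT cultures, so they are not independent of each other.

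The median log2 fold change of the 45 members was -0.01 in the exon 1 mutant, 0.04 in the exon 3 mutant and 0.23 between the mutants. Over all genes it was 0.02, 0.01 and -0.01. Members lay farther from 0 in either direction, with a median absolute log2 fold change of 0.36, 0.37 and 0.34 in the 3 comparisons, against 0.16, 0.19 and 0.19 over all genes. The median spread between cultures of 1 genotype was larger for members too, as given with the heat map. A member with few reads entered the test only if enough cultures, of whatever genotype, had reads. The plot of fold changes with their errors shows 44 of the 45.

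**Figure D1:**
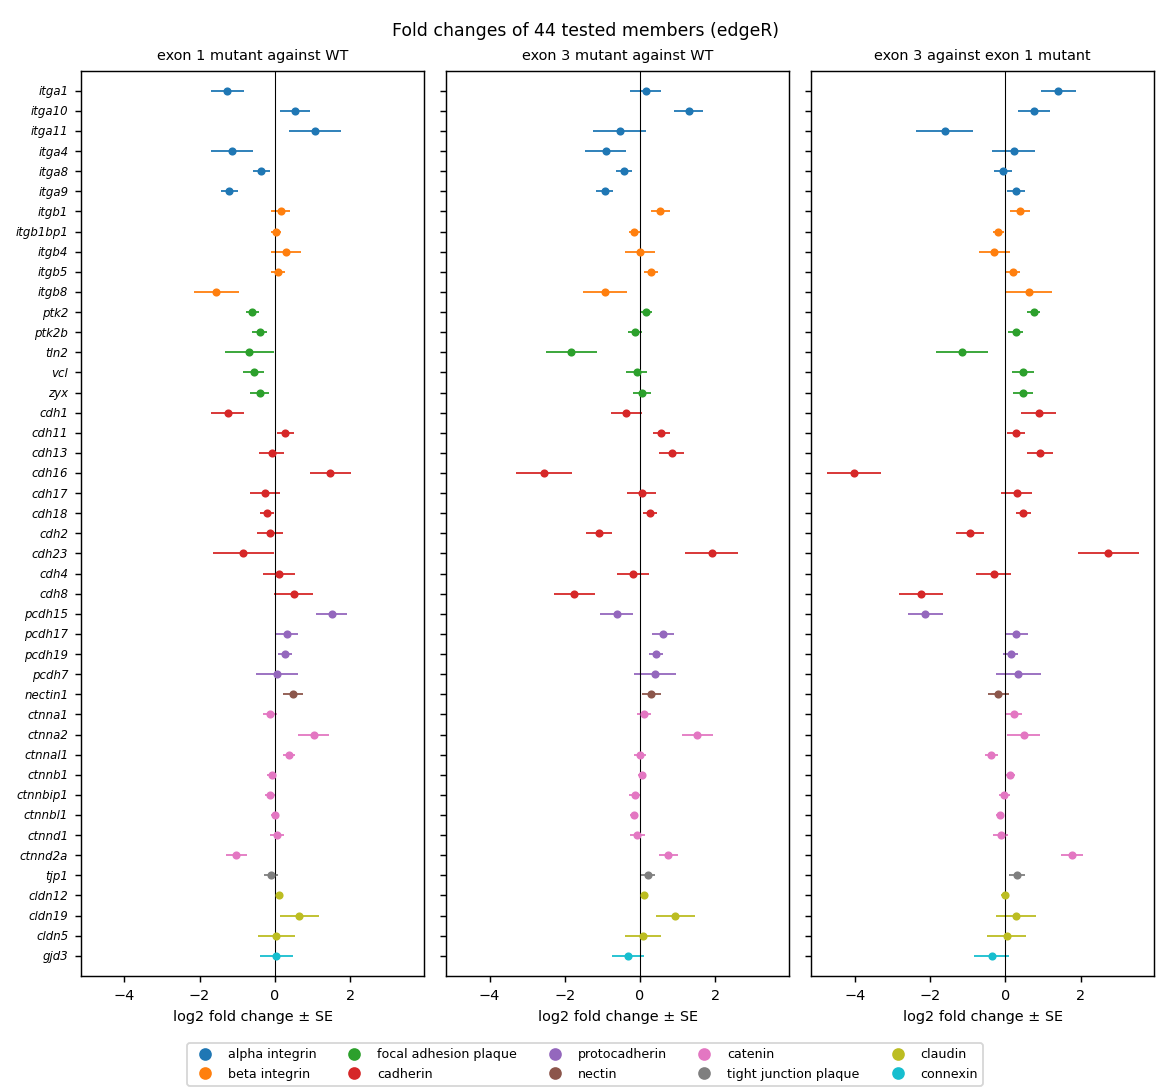
Log2 fold change ± SE (x axis) of 44 of the 45 tested members (y axis), coloured by class, for the exon 1 mutant against WT (left), the exon 3 mutant against WT (middle) and the exon 3 against the exon 1 mutant (right). All 5 focal adhesion plaque genes lie below 0 on the left, itga9 lies below 0 in both comparisons with WT, and ctnnd2a lies below 0 on the left and above 0 in the middle.

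Below, CPM values stand in the order F1, F9, F4 and FM for WT, 3, 4 and 6 for the exon 1 mutant, and 1, 3 and 4 for the exon 3 mutant. A fold change is a log2 value, in a mutant against WT unless it is between the mutants, where it is the exon 3 against the exon 1 mutant. Levels are not per length of transcript, so they are compared between cultures and not between genes.

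Among the alpha integrins, 6 of 9 were tested. In each comparison with WT, 4 of the 6 had a fold change below 0, where 46.2% of all genes did in the exon 1 mutant and 48.5% in the exon 3 mutant. The median was -0.75 in the exon 1 mutant and -0.48 in the exon 3 mutant. The chain with the smallest adjusted p was itga9, which pairs with beta 1 and binds tenascin-C, osteopontin and VCAM1. itga9 was at 194, 191, 223 and 253 CPM in WT, at 102, 104 and 71.6 CPM in the exon 1 mutant and at 109.8, 77.4 and 149.8 CPM in the exon 3 mutant. Every culture of either mutant was below every WT culture. The mutants overlapped each other. The fold change was -1.22 ± 0.23 (SE, adjusted p = 0.11) in the exon 1 mutant and -0.94 ± 0.23 (SE, adjusted p = 0.13) in the exon 3 mutant. Between the mutants it was 0.28 ± 0.24 (SE, adjusted p = 0.738). In single libraries itga9 held 176 to 272 CPM in WT, 70.3 to 134 CPM in the exon 1 mutant and 73.5 to 155 CPM in the exon 3 mutant, so neither mutant overlapped WT in its libraries either. The exon 1 difference passed in 6 of 20 alternative analyses, and its fold change ran from -1.38 to -1.06 over the 20. Among the 6 were DESeq2 and the fits with 18 libraries or the 6 WT libraries as separate units, which count technical replicates as independent. Another, without exon 1 library 3A, was chosen after seeing the data. The fit without exon 3 culture 3 passed too (adjusted p = 0.0324). In edgeR fits without any single exon 1 or WT culture the exon 1 difference did not pass, with adjusted p of 0.0995 to 0.314. The exon 3 difference passed in 2 of 20.

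The collagen-binding alpha chains lay on both sides of WT. itga1, a receptor for collagens and laminin, was at 3.01, 4.25, 2.28 and 2.02 CPM in WT, at 1.08, 1.58 and 0.908 CPM in the exon 1 mutant and at 2.73, 1.55 and 5.28 CPM in the exon 3 mutant. All 3 exon 1 cultures were below all 4 WT cultures, and the exon 3 cultures spanned the WT range. The fold change in the exon 1 mutant was -1.26 ± 0.43 (SE, adjusted p = 0.435), between the mutants 1.41 ± 0.45 (SE, adjusted p = 0.467) and in the exon 3 mutant against WT 0.15 ± 0.41 (SE, adjusted p = 0.907), and the last turned to -0.42 without exon 3 culture 4. itga10, a collagen receptor known from cartilage, was at 451, 396, 527 and 475 CPM in WT, at 832, 475 and 698 CPM in the exon 1 mutant and at 547, 2065 and 779.7 CPM in the exon 3 mutant. All exon 3 cultures were above all WT cultures, and culture 3 was the highest of the 10 cultures. In single libraries WT reached 665 CPM and the exon 3 mutant went down to 528 CPM, so the libraries overlapped. The fold change against WT was 1.29 ± 0.39 (SE, adjusted p = 0.214) in the exon 3 mutant and 0.53 ± 0.39 (SE, adjusted p = 0.798) in the exon 1 mutant, and between the mutants it was 0.76 ± 0.42 (SE, adjusted p = 0.649). Without exon 3 culture 3, which also had the highest osteoblast and pigment cell sums, the exon 3 value was 0.51 (adjusted p = 0.586) and the value between the mutants was -0.0081. The part of these markers in this difference was not tested. itga11, the collagen receptor of fibroblasts, was at 1.87, 1.86, 8.41 and 8.75 CPM in WT, at 21.9, 6.65 and 4.65 CPM in the exon 1 mutant and at 1.81, 5.69 and 3.44 CPM in the exon 3 mutant. Its groups overlapped. Exon 1 culture 3 was the highest, and there library 3A held 32.9 CPM and 3B 11.9 CPM. Its fold change was 1.06 ± 0.69 (SE, adjusted p = 0.758) in the exon 1 mutant and -1.60 ± 0.76 (SE, adjusted p = 0.599) between the mutants. Without exon 1 culture 3 these values were 0.098 and -0.64.

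The other 2 alpha chains tested, itga4 and itga8, are known to bind fibronectin. itga4, which pairs with beta 1 and binds fibronectin and VCAM1, was at 349, 91.3, 279 and 192 CPM in WT, at 122, 91.9 and 97.1 CPM in the exon 1 mutant and at 155, 31 and 176 CPM in the exon 3 mutant. WT F9 lay among the mutant cultures, so the groups overlapped. The other WT cultures were above all mutant cultures. This gave a fold change of -1.14 ± 0.56 (SE, adjusted p = 0.627) in the exon 1 mutant and -0.92 ± 0.55 (SE, adjusted p = 0.535) in the exon 3 mutant. The lowest culture was exon 3 culture 3. itga8, which binds fibronectin and nephronectin, held 40.9 to 61.5 CPM in WT, 28.7 to 44 CPM in the exon 1 mutant and 27.2 to 47.9 CPM in the exon 3 mutant, with groups that overlapped. RefSeq gives the name itga8 to another column of the table as well, so reads may be split between the 2. Their likeness in sequence was not examined. The other column held 118 to 181 CPM in WT, 84.9 to 126 CPM in exon 1 cultures and 71.7 to 132 CPM in exon 3 cultures. The name rule left out itga5 (LOC107390401), by its RefSeq name another alpha chain. itga5 held 33.5 to 66.1 CPM in WT, 22 to 39.1 CPM in the exon 1 mutant and 52.2 to 85.3 CPM in the exon 3 mutant. The mutants did not overlap with each other, but each overlapped with WT. Its fold change was -0.76 ± 0.28 (SE, adjusted p = 0.475) in the exon 1 mutant and 1.17 ± 0.30 (SE, adjusted p = 0.319) between the mutants.

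**Figure D2:**
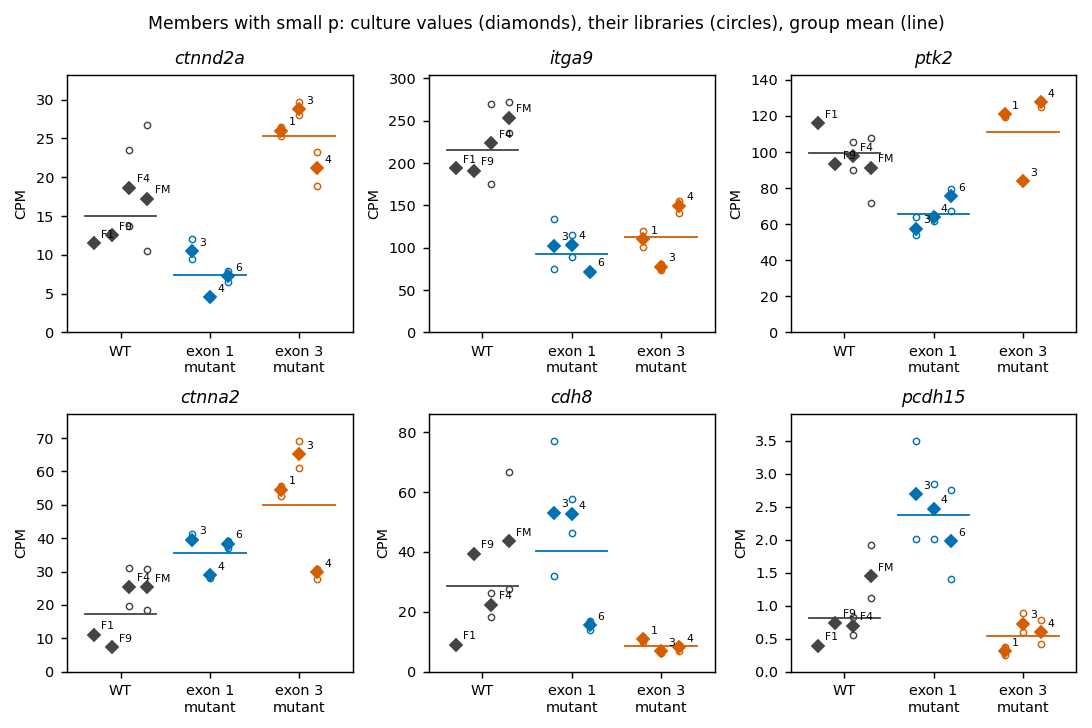
CPM (y axis, from 0) of 6 members in WT, exon 1 mutant and exon 3 mutant cultures. Diamonds are cultures, labelled with their names, open circles are the single libraries of cultures with A and B, and lines are genotype means. For itga9 all mutant cultures lie below WT, for ctnnd2a the exon 1 cultures lie below and the exon 3 cultures above WT, and for cdh8 the 3 exon 3 cultures lie close together while WT and the exon 1 mutant are spread.

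Of the 7 genes with beta chain names, 5 were tested, with fold changes from -1.56 to 0.29 and a median of 0.09 in the exon 1 mutant, and none passed the test. itgb1, the beta chain shared by most matrix receptors named here, was at 1429.5, 959, 1590.3 and 1342 CPM in WT, at 1577, 1193 and 1649.7 CPM in the exon 1 mutant and at 1429, 2669 and 1682 CPM in the exon 3 mutant. The groups overlapped, with exon 3 culture 3 the highest and WT F9 the lowest of the 10 cultures. The fold change in the exon 3 mutant was 0.53 ± 0.25 (SE, adjusted p = 0.424), and it was 0.22 without culture 3. itgb5, which pairs with alpha V and binds vitronectin, was at 37.9, 33.6, 36.7 and 31.1 CPM in WT, at 43.3, 31.6 and 35.9 CPM in the exon 1 mutant and at 36.5, 57.5 and 33.7 CPM in the exon 3 mutant. Exon 3 culture 3 was again the highest, and the other 9 cultures lay within 31.1 to 43.3 CPM. Its fold change in the exon 3 mutant was 0.29 ± 0.19 (SE, adjusted p = 0.561). The adaptor itgb1bp1, which binds the tail of beta 1, ran from 27.8 to 42.1 CPM over all cultures, and its groups overlapped. The others tested, itgb4 and itgb8, stayed at or below 7.02 CPM in every culture. The lowest fold change of the class was that of itgb8, named here after its values were seen, at -1.56 ± 0.60 (SE, adjusted p = 0.497) in the exon 1 mutant, with overlapping groups. The name rule left out itgb3a (LOC107378581) and itgb3b (LOC107387874), beta chains by their RefSeq names. itgb3a held 23.3 to 104 CPM in WT, 174 to 234 CPM in the exon 1 mutant and 184 to 363 CPM in the exon 3 mutant. Both mutants lay above WT without overlap. Its fold change was 1.64 ± 0.47 (SE, adjusted p = 0.312) in the exon 1 mutant and 2.01 ± 0.47 (SE, adjusted p = 0.129) in the exon 3 mutant. The itgb3b groups overlapped, at 0.18 ± 0.38 and 0.78 ± 0.38 (SE).

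The focal adhesion plaque genes chosen by name had lower means in the exon 1 mutant than in WT, and none of them passed the test. All 5 were tested, and all 5 had a fold change below 0 there, with a median of -0.57, where 46.2% of all genes were below 0. In the exon 3 mutant the median was -0.09 with 3 of 5 below 0, where 48.5% of all genes were. Between the mutants 4 of 5 were above 0, with a median of 0.46, where 51.1% of all genes were below 0. ptk2, focal adhesion kinase, was at 116, 93.1, 97.7 and 91.3 CPM in WT, at 57.4, 63.8 and 75.6 CPM in the exon 1 mutant and at 121, 83.9 and 128 CPM in the exon 3 mutant. The 3 exon 1 cultures were below every culture of WT and of the exon 3 mutant, and WT and the exon 3 mutant overlapped. Its fold change was -0.60 ± 0.17 (SE, adjusted p = 0.288) in the exon 1 mutant, 0.16 ± 0.16 (SE, adjusted p = 0.733) in the exon 3 mutant and 0.76 ± 0.18 (SE, adjusted p = 0.267) between the mutants. In single libraries the exon 1 mutant reached 79.3 CPM, while WT FMB held 71.5 CPM, so the libraries overlapped with WT. The name rule left out LOC columns of these families, which did not all lie on that side. ptk2aa (LOC107394601), by its RefSeq name another focal adhesion kinase gene, was at 188, 257, 213 and 235 CPM in WT, at 305, 335 and 274 CPM in the exon 1 mutant and at 206, 293 and 253 CPM in the exon 3 mutant. Its exon 1 cultures were above WT without overlap, with a fold change of 0.45 ± 0.16 (SE, adjusted p = 0.449). tln1 (LOC107394916), by its name talin 1, had a fold change of 0.02 ± 0.25 (SE, adjusted p = 0.997) there, with overlapping groups.

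Vinculin and zyxin shared their lowest and highest cultures. vcl, which couples talin to actin, was at 477, 197, 494 and 411 CPM in WT, at 298, 201 and 299.8 CPM in the exon 1 mutant and at 374, 369 and 368 CPM in the exon 3 mutant. zyx, an actin-binding sensor of tension, was at 422, 211, 463 and 374 CPM in WT, at 345, 219.6 and 265 CPM in the exon 1 mutant and at 361, 395 and 389 CPM in the exon 3 mutant. WT F9 was the lowest of the 10 cultures for both, so that the exon 1 mutant and WT overlapped, and all exon 3 cultures were above all exon 1 cultures for both. The fold change in the exon 1 mutant was -0.57 ± 0.28 (SE, adjusted p = 0.638) for vcl and -0.41 ± 0.25 (SE, adjusted p = 0.735) for zyx. Between the mutants it was 0.47 ± 0.30 (SE, adjusted p = 0.684) for vcl and 0.46 ± 0.27 (SE, adjusted p = 0.654) for zyx. tln2, talin 2, which activates integrins, was at 27.2, 59.9, 17.4 and 23.4 CPM in WT, at 37.7, 18.3 and 3.63 CPM in the exon 1 mutant and at 8.94, 12.3 and 5.73 CPM in the exon 3 mutant. The exon 3 cultures were below WT without overlap. The exon 1 cultures ran from far below WT to within it. This was a fold change of -1.83 ± 0.68 (SE, adjusted p = 0.31) in the exon 3 mutant and -1.15 ± 0.69 (SE, adjusted p = 0.675) between the mutants, and the latter was -0.30 without exon 1 culture 3. The kinase ptk2b, a relative of focal adhesion kinase, held 9.21 to 14.5 CPM in WT, 7.59 to 9.79 CPM in the exon 1 mutant and 8.04 to 12 CPM in the exon 3 mutant. Its groups overlapped.

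**Figure D3:**
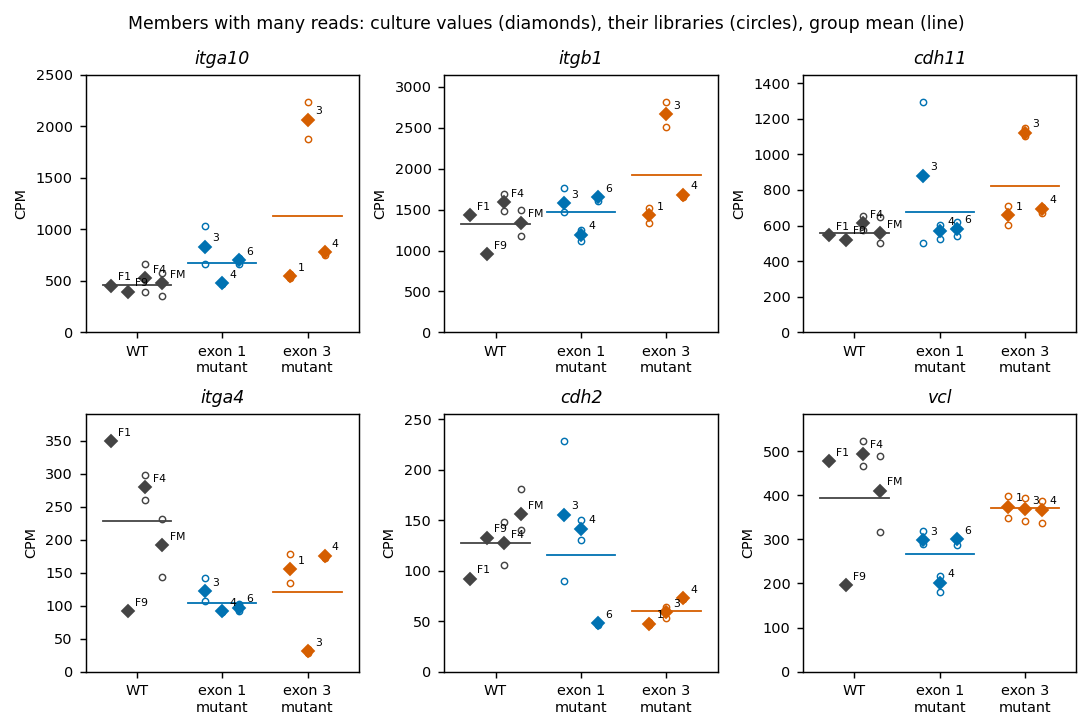
CPM (y axis, from 0) of 6 members with many reads in WT, exon 1 mutant and exon 3 mutant cultures, drawn as in the plot of members with small p. Exon 3 culture 3 is the highest culture for itga10, itgb1 and cdh11 and the lowest for itga4, and WT F9 lies apart from the other WT cultures for itga4 and vcl.

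The cadherins of fibroblasts, cdh2 and cdh11, lay on opposite sides of WT in the exon 3 mutant, and neither passed the test. Of the 15 cadherins, 10 were tested. cdh2, N-cadherin, was at 92.3, 133, 127 and 156 CPM in WT, at 156, 142 and 48.1 CPM in the exon 1 mutant and at 47.6, 58.7 and 72.7 CPM in the exon 3 mutant. All exon 3 cultures were below all WT cultures, and the exon 1 cultures ran from below to within the WT range. The difference was -1.09 ± 0.35 (SE, adjusted p = 0.252) in the exon 3 mutant and -0.95 ± 0.37 (SE, adjusted p = 0.546) between the mutants. In the exon 1 mutant it was -0.14 ± 0.35 (SE, adjusted p = 0.967), which turned to 0.23 without culture 6, the lowest. cdh11, a cadherin of mesenchyme and bone-forming cells, was at 545, 519.7, 613 and 557 CPM in WT, at 879, 570.2 and 582 CPM in the exon 1 mutant and at 658, 1121 and 695 CPM in the exon 3 mutant. All exon 3 cultures were above all WT cultures, and culture 3 was the highest of the 10. Its fold change in the exon 3 mutant was 0.56 ± 0.22 (SE, adjusted p = 0.34), and it was 0.27 without culture 3.

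Among the other cadherins, cdh8 had a wide range. cdh8, a type II cadherin known from the nervous system, was at 8.97, 39.5, 22.4 and 43.7 CPM in WT, at 53.2, 52.5 and 15.5 CPM in the exon 1 mutant and at 10.8, 6.77 and 8.09 CPM in the exon 3 mutant. All exon 3 cultures were below all exon 1 cultures, and they overlapped with WT at F1. The fold change was -1.75 ± 0.55 (SE, adjusted p = 0.236) in the exon 3 mutant, -2.24 ± 0.58 (SE, adjusted p = 0.332) between the mutants and 0.49 ± 0.51 (SE, adjusted p = 0.88) in the exon 1 mutant. In the exon 1 mutant, library 3A held 76.9 CPM and its partner 3B 31.8 CPM. In WT, FMA held 27.5 CPM and FMB 66.7 CPM. cdh4, R-cadherin, was at 46, 118, 44.5 and 77.3 CPM in WT, at 107, 82.3 and 42.4 CPM in the exon 1 mutant and at 66.1, 88.2 and 33.3 CPM in the exon 3 mutant. Its groups overlapped throughout, and cdh4 is also the RefSeq name of another column.

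Some cadherins with small p had few reads. cdh16, known from kidney, had 33 counts in all WT cultures together, 80 in the exon 1 mutant and 5 in the exon 3 mutant, that is, levels at 0.261, 0.207, 0.25 and 0.257 CPM in WT, at 0.251, 0.467 and 1.35 CPM in the exon 1 mutant and at 0.0219, 0.0469 and 0.0498 CPM in the exon 3 mutant. Each exon 3 culture was below each WT and exon 1 culture, on 1 or 2 counts apiece. Its fold change was -2.55 ± 0.73 (SE, adjusted p = 0.19) in the exon 3 mutant, -4.02 ± 0.72 (SE, adjusted p = 0.164) between the mutants and 1.47 ± 0.54 (SE, adjusted p = 0.476) in the exon 1 mutant. Without exon 1 culture 6 the last 2 values were -3.10 and 0.55. cdh23, a cadherin of the tip links of hair cells, had 33 counts in WT, 16 in the exon 1 mutant and 112 in the exon 3 mutant. Exon 1 culture 6 had no count, which allows up to 0.0825 CPM (3 counts). Elsewhere the exon 1 and WT cultures held 0.124 to 0.388 CPM, and the exon 3 cultures held 0.372, 1.36 and 0.921 CPM. Exon 3 culture 1 lay just under WT F4, so the exon 3 mutant and WT overlapped. The exon 3 mutant lay above the exon 1 mutant without overlap. This was a fold change of 1.90 ± 0.71 (SE, adjusted p = 0.314) in the exon 3 mutant, 2.74 ± 0.81 (SE, adjusted p = 0.415) between the mutants and -0.84 ± 0.82 (SE, adjusted p = 0.869) in the exon 1 mutant. Over the alternative analyses the last 2 ran from 2.20 to 3.37 and from -1.47 to 0.02. They were 3.37 and -1.47 without exon 1 culture 3. cdh1, E-cadherin, the epithelial cadherin, had 118 counts in all and ran from 0.111 to 0.61 CPM. The exon 1 cultures were below WT without overlap. This gave a fold change of -1.26 ± 0.45 (SE, adjusted p = 0.462) in the exon 1 mutant, -0.37 ± 0.42 (SE, adjusted p = 0.753) in the exon 3 mutant and 0.89 ± 0.47 (SE, adjusted p = 0.627) between the mutants. Of the 4 epithelial markers tested, cdh1 among them, 3 were above 0 in the exon 1 mutant, where 46.2% of all genes were below 0. Their median was 0.63, and 0 passed the test. The epithelial adhesion molecule epcam was at 0.653, 1.28, 1.33 and 2.59 CPM in WT, at 3.74, 3.78 and 2.37 CPM in the exon 1 mutant and at 1.81, 1.71 and 1.74 CPM in the exon 3 mutant. Its fold change in the exon 1 mutant was 1.14 ± 0.38 (SE, adjusted p = 0.415), on the other side of WT from cdh1, and the groups overlapped.

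Protocadherins, which are weakly adhesive and best known from the nervous system, were tested in 4 of 7 cases. All 4 had a fold change above 0 in the exon 1 mutant, with a median of 0.29, where 46.2% of all genes were below 0. In the exon 3 mutant 3 of 4 were above 0, with a median of 0.40, where 48.5% of all genes were below 0. pcdh15, the partner of cdh23 in tip links, was at 0.392, 0.743, 0.694 and 1.45 CPM in WT, at 2.69, 2.47 and 1.98 CPM in the exon 1 mutant and at 0.306, 0.726 and 0.598 CPM in the exon 3 mutant. The exon 1 cultures were above all others without overlap, and WT and the exon 3 mutant overlapped. In single libraries the exon 1 mutant went down to 1.41 CPM and WT reached 1.93 CPM, so these 2 overlapped. The difference was 1.5 ± 0.42 (SE, adjusted p = 0.292) in the exon 1 mutant, -2.13 ± 0.47 (SE, adjusted p = 0.265) between the mutants and -0.63 ± 0.44 (SE, adjusted p = 0.595) in the exon 3 mutant. These levels rested on 125 counts in WT, 290 in the exon 1 mutant and 69 in the exon 3 mutant.

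The other protocadherins were spread within genotypes. pcdh7 was at 17.3, 16.9, 34.1 and 38.1 CPM in WT, at 35.7, 31.8 and 15.2 CPM in the exon 1 mutant and at 70.4, 11 and 23.4 CPM in the exon 3 mutant. The exon 3 cultures held both the highest and the lowest value. pcdh17 was at 8.23, 10.1, 12.8 and 12.6 CPM in WT, at 14.6, 7.75 and 18.8 CPM in the exon 1 mutant and at 12.3, 16.9 and 21.2 CPM in the exon 3 mutant. Its groups overlapped, with a fold change of 0.61 ± 0.29 (SE, adjusted p = 0.424) in the exon 3 mutant. pcdh19, which is known to work with N-cadherin, was at 11.2, 8.76, 9.77 and 12 CPM in WT, at 16.1, 12.2 and 9.38 CPM in the exon 1 mutant and at 13.8, 15.4 and 12.5 CPM in the exon 3 mutant. The exon 3 cultures were above WT without overlap, by a fold change of 0.42 ± 0.18 (SE, adjusted p = 0.394). nectin1, a receptor of early adherens junctions, was at 21.1, 39.3, 33.3 and 33.8 CPM in WT, at 59, 39.3 and 35.3 CPM in the exon 1 mutant and at 30.3, 52.2 and 35 CPM in the exon 3 mutant. Its groups overlapped. WT F1 was the lowest culture. Exon 1 culture 3 was the highest, and there library 3A held 94.5 CPM and 3B 26.2 CPM. The fold change in the exon 1 mutant was 0.48 ± 0.26 (SE, adjusted p = 0.671). It ran from 0.07 to 0.62 over 20 alternative analyses.

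Among the catenins, the fold changes farthest from 0 were those of ctnna2 and ctnnd2a. All 8 genes with catenin names were tested. ctnnb1, beta-catenin, was at 487, 483, 448 and 429.5 CPM in WT, at 443, 423 and 435 CPM in the exon 1 mutant and at 467, 513 and 453 CPM in the exon 3 mutant. ctnna1, the alpha catenin of most tissues, was at 459.6, 329, 487 and 412 CPM in WT, at 454, 320.1 and 380.0 CPM in the exon 1 mutant and at 385, 549 and 418 CPM in the exon 3 mutant. ctnnd1, the p120 catenin that keeps cadherins at the membrane, was at 61.8, 78.2, 91.2 and 101 CPM in WT, at 91.2, 96.3 and 70.9 CPM in the exon 1 mutant and at 65.6, 95.5 and 76.2 CPM in the exon 3 mutant. Each of the 3 overlapped between WT and either mutant. For ctnnb1 the exon 3 cultures were all above the exon 1 cultures, with a narrow range over all 10. RefSeq gives the name ctnnd1 to another column too, which had more reads. That column held 147 to 235 CPM in WT, 153 to 187 CPM in exon 1 cultures and 201 to 223 CPM in exon 3 cultures.

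By cultures, the delta catenin ctnnd2a lay on opposite sides of WT in the mutants. ctnnd2a, a relative of p120 known from neurons, was at 11.5, 12.6, 18.6 and 17.3 CPM in WT, at 10.5, 4.54 and 7.21 CPM in the exon 1 mutant and at 26, 28.8 and 21.2 CPM in the exon 3 mutant. All exon 1 cultures were below all WT cultures and all exon 3 cultures above them. The fold change was -1.02 ± 0.27 (SE, adjusted p = 0.275) in the exon 1 mutant, 0.75 ± 0.26 (SE, adjusted p = 0.289) in the exon 3 mutant and 1.77 ± 0.29 (SE, adjusted p = 0.159) between the mutants. In single libraries the exon 1 mutant ran from 4.49 to 12 CPM and the exon 3 mutant from 18.9 to 29.7 CPM. The WT partners disagreed. F4A held 23.5 CPM and F4B 13.8 CPM, FMA held 10.5 CPM and FMB 26.7 CPM, so the WT libraries overlapped with both mutants while the mutants did not overlap with each other. DESeq2 and the fit of 18 libraries called the difference between the mutants, with adjusted p of 1.99e-05 and 0.00224, and the other 18 alternatives did not.

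ctnna2, the alpha catenin of neurons, was at 11.1, 7.31, 25.4 and 25.4 CPM in WT, at 39.5, 28.8 and 38.4 CPM in the exon 1 mutant and at 54.5, 65.2 and 29.8 CPM in the exon 3 mutant. All cultures of both mutants were above all WT cultures. In single libraries WT reached 31.1 CPM. The exon 1 mutant went down to 28.2 CPM and the exon 3 mutant to 27.9 CPM, so both overlapped with WT in their libraries. WT F1 and F9 were below F4 and FM. Its fold change was 1.03 ± 0.41 (SE, adjusted p = 0.513) in the exon 1 mutant, 1.52 ± 0.41 (SE, adjusted p = 0.173) in the exon 3 mutant and 0.49 ± 0.44 (SE, adjusted p = 0.75) between the mutants. The neuron and Schwann cell list had 3 genes in the table, with a summed level of 0.416 to 1.49 CPM in WT, 0.935 to 1.56 CPM in the exon 1 mutant and 0.7 to 4.45 CPM in the exon 3 mutant. The part of such cells in the ctnna2 and ctnnd2a values was not tested. Of the 3 genes with catenin-like names, ctnnal1 ran from 5.72 to 9.44 CPM over all cultures, ctnnbip1 from 31.4 to 46.6 CPM and ctnnbl1 from 61.9 to 77.1 CPM.

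The tight junction scaffold tjp1, ZO-1, was tested, whereas most claudins and connexins had almost no reads. tjp1 was at 35.4, 27.3, 36.3 and 34 CPM in WT, at 41.2, 25.3 and 25.7 CPM in the exon 1 mutant and at 33.3, 44.9 and 36.4 CPM in the exon 3 mutant. Its groups overlapped. The fold change between the mutants was 0.31 ± 0.20 (SE, adjusted p = 0.687). Of 7 claudins 3 were tested. cldn12 ran from 32.1 to 41.1 CPM over all 10 cultures. cldn5, the claudin of endothelium, ran from 1.09 to 4.38 CPM, with overlapping groups. cldn19, known from kidney and Schwann cells, was at 1.7, 1.24, 0.832 and 1.01 CPM in WT, at 1.96, 1.82 and 1.79 CPM in the exon 1 mutant and at 1.36, 4.64 and 0.797 CPM in the exon 3 mutant. The exon 1 cultures were just above WT without overlap. In the exon 3 mutant the fold change was 0.94 ± 0.51 (SE, adjusted p = 0.5), and it was -0.14 without culture 3. Of 8 connexins, which form gap junctions, gjd3 was tested and ran from 0.305 to 0.753 CPM.

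The 26 members not tested had 1 to 62 counts over all 18 libraries together. They were 3 alpha integrins (itga2, itga3 and itga7), 2 genes with beta integrin names (itgb6 and itgbl1), 5 cadherins, 3 protocadherins, nectin4, a tjp gene, 4 claudins and 7 connexins. Among them nectin4 had 5 counts, tjp3 had 16 and gja10 had 62. With edgeR and no filter on low counts all 26 were fitted, and 0 passed in any comparison. At an unadjusted p under 0.05 there were 2 of them in the exon 1 mutant, 1 in the exon 3 mutant and 2 between the mutants. In the same fit 1573, 2265 and 1596 of all 22938 genes were under it in these comparisons. Of the 45 tested, 33 reached a mean of 5 CPM in a genotype and 12 did not.

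Cultures whose ranges do not overlap were counted for all members. Exon 1 cultures were above every WT culture for 3 members (ctnna2, pcdh15 and cldn19), where 4.92% of all genes were. Below every WT culture were 5 (itga1, itga9, ptk2, cdh1 and ctnnd2a), where 4.37% of all genes were. In the exon 3 mutant 6 members were above WT (pcdh19, ctnna2, cdh11, itga10, cdh18 and ctnnd2a), where 6.99% of all genes were, and 5 were below (itga9, cdh16, cdh2, tln2 and ctnnbl1), where 6.87% of all genes were. Between the mutants 9 were higher in the exon 3 mutant (cdh23, ctnnb1, zyx, cdh18, vcl, cdh13, ptk2, cdh1 and ctnnd2a), where 6.18% of all genes were. A further 4 were lower there (pcdh15, cdh16, ctnnal1 and cdh8), where 5.04% of all genes were. As shares of the 45 tested members these came to 6.67% and 11.1% in the exon 1 mutant, 13.3% and 11.1% in the exon 3 mutant, and 20% and 8.89% between the mutants. By single libraries, 0 members lay wholly above WT in either mutant. Wholly below it lay 2 in the exon 1 mutant and 4 in the exon 3 mutant. Between the mutants 4 lay wholly higher and 4 wholly lower in the exon 3 mutant. Shares of all genes by libraries are not given.

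Levels of many members were spread within a genotype. Among the 33 members that reached 5 CPM, the median SD of log2 CPM between cultures of a genotype was 0.33, against 0.209 for the 11765 genes at that level. Exon 3 culture 3 was the highest of the 10 cultures for 9 of the 33 (ctnna2, cdh11, ctnnb1, itga10, itgb1, tjp1, itgb5, ctnna1 and ctnnd2a) and the lowest for 6. This culture also had the highest fibroblast, osteoblast and pigment cell sums, whose part in these values was not tested. Of its fibroblast sum of 7511 CPM, col1a2 held 4994 CPM, and of its osteoblast sum of 1341 CPM, alpl held 1289.5 CPM. WT F9 was the highest for 5 and the lowest for 8, vcl, zyx, itgb1 and itga10 among them. The same counts were not taken over all genes at that level. They therefore do not show whether the members differ from other genes in these cultures.

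**Figure D4:**
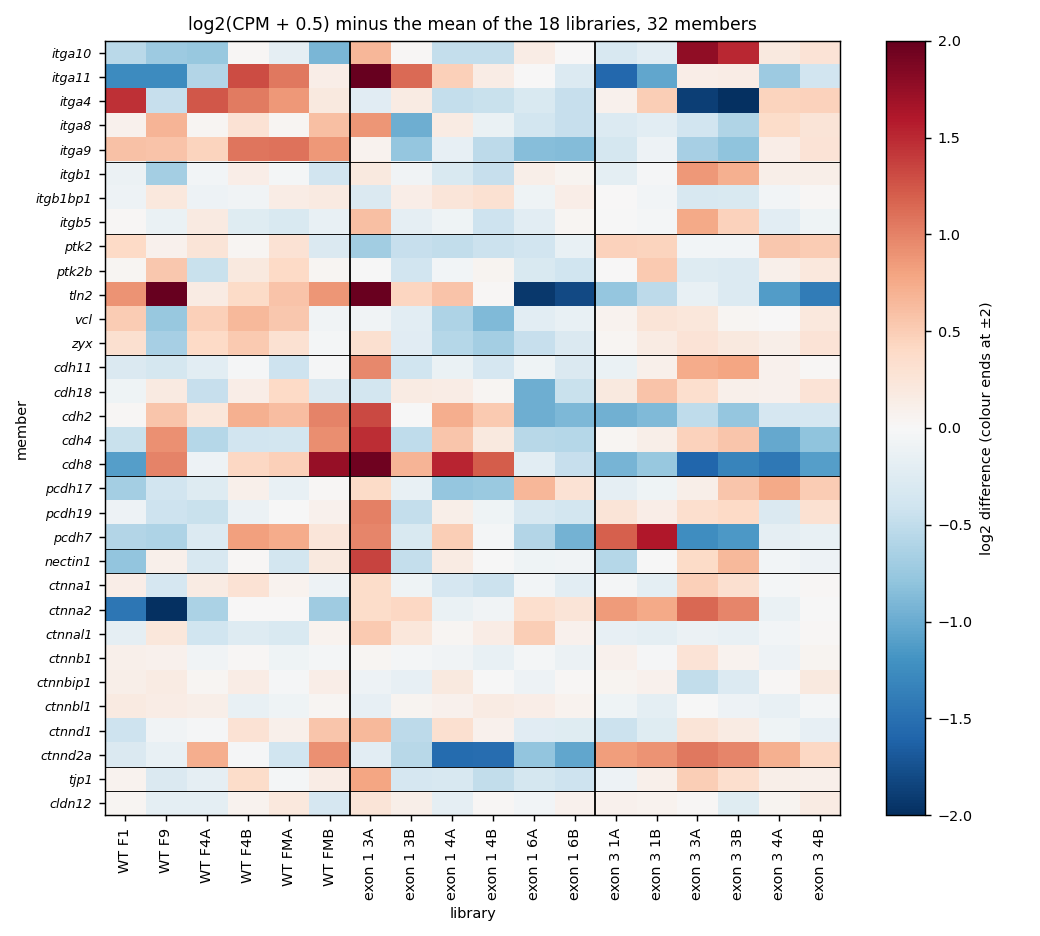
Log2(CPM + 0.5) of 32 of the 33 members that reached 5 CPM in a genotype (rows, grouped by class) in each of the 18 libraries (columns, grouped by genotype), minus the member's mean over the libraries. Red is higher and blue lower, and the colour ends at 2 in either direction. Exon 1 library 3A stands higher than its partner 3B for cdh2, cdh4, cdh8 and cdh11 but lower for cdh18, and itga9 is red in all 6 WT libraries.

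Technical partners disagreed in 3 cultures. In exon 1 culture 3, 15 of the 33 members differed by over 1.5-fold between libraries 3A and 3B, all higher in 3A, and 44.3% of all genes at that level differed as much. The largest ratios were for cdh4 (4-fold), itga8 (3.72-fold) and nectin1 (3.6-fold). In WT F4, 8 of 33 members differed that much, where 10.9% of all genes did, and 7 of the 8 were higher in F4B. In WT FM, 11 of 33 did, where 11.6% of all genes did. In the 5 other cultures with partners, 0 or 1 of the 33 did. itga11 held 3.28 CPM in F4A and 13.5 CPM in F4B, and cdh4 held 47.9 CPM in FMA and 119 CPM in FMB. A value of such a culture is the sum of unlike libraries.

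**Figure D5:**
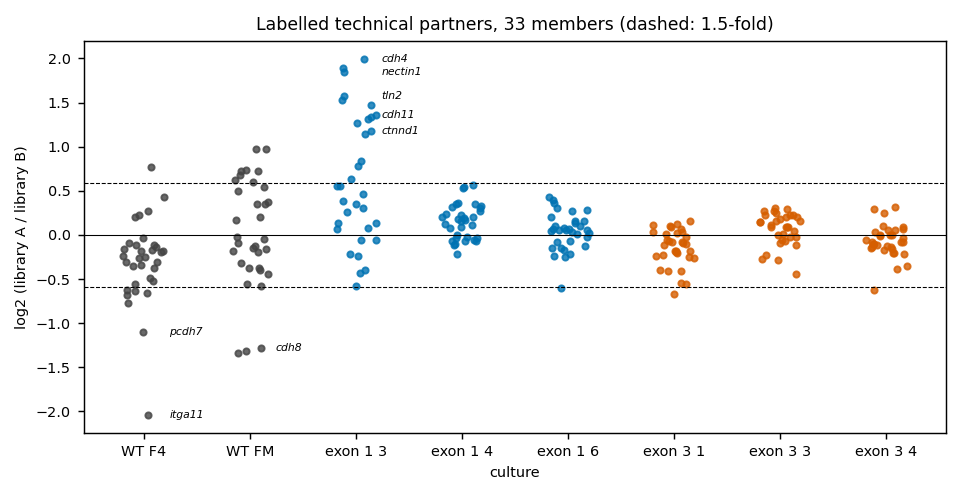
Log2 ratio of library A to library B (y axis) for the 33 members in each culture that has both (x axis). Each point is a member, the dashed lines mark 1.5-fold in either direction, and some members beyond 2-fold are named. The points of exon 1 culture 3, WT F4 and WT FM spread far wider than those of the other 5 cultures.

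Related genes outside the name rule were counted too. A further 66 LOC columns have a RefSeq name of these families. Of them 36 were tested and 0 passed in any comparison, where at most 0.238% of all genes did. In the exon 3 mutant against WT the smallest adjusted p was that of the claudin gene cldn23l (LOC107392216), which ran from 0.0413 to 0.222 CPM in WT and 0.772 to 1.57 CPM in the exon 3 mutant without overlap. Its fold change was 2.74 ± 0.47 (SE, adjusted p = 0.0508). In the exon 1 mutant and between the mutants it was that of the connexin gene gjc4b (LOC107389383). gjc4b was at 16.8, 11.4, 15.5 and 13.3 CPM in WT, at 6.88, 8.08 and 9.68 CPM in the exon 1 mutant and at 12.1, 14.5 and 14 CPM in the exon 3 mutant. All exon 1 cultures were below all others, with a fold change of -0.80 ± 0.17 (SE, adjusted p = 0.151) against WT and 0.72 ± 0.18 (SE, adjusted p = 0.291) between the mutants. ctnnd2b (LOC107384204), the other gene of the ctnnd2 name, was at 0.653, 0.496, 1.44 and 1.51 CPM in WT, at 1, 0.734 and 2.23 CPM in the exon 1 mutant and at 4, 12.5 and 3.19 CPM in the exon 3 mutant. Its exon 3 cultures were above WT without overlap, with a fold change of 2.64 ± 0.58 (SE, adjusted p = 0.11). Without exon 3 culture 3, the highest, it was 1.76 (adjusted p = 0.304). The exon 1 mutant overlapped with WT, at 0.32 ± 0.60 (SE, adjusted p = 0.945).

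A list of 105 other adhesion and junction names, such as desmosome, kindlin, tensin, syndecan and tetraspanin genes, had 77 in the table and 67 tested. In the exon 3 mutant against WT 1 of the 67 passed, where 0.238% of all genes did, and it was lower. It was cadm4, a nectin-like adhesion molecule, which is named because it passed. cadm4 was at 18.3, 14.8, 16.2 and 15.4 CPM in WT, at 17.6, 7.1 and 3.49 CPM in the exon 1 mutant and at 1.64, 2.51 and 1.72 CPM in the exon 3 mutant. The exon 3 cultures lay close together, far below every WT culture, and the exon 1 cultures ran from near the exon 3 level up to the WT level. This was a fold change of -3.05 ± 0.47 (SE, adjusted p = 0.0379) in the exon 3 mutant and -0.78 ± 0.42 (SE, adjusted p = 0.678) in the exon 1 mutant. The exon 3 value for cadm4 ran from -3.27 to -2.93 over 20 alternative analyses and passed in 8 of them. Without any 1 of the exon 3 or WT cultures, or without exon 1 culture 4, it did not pass, with adjusted p for cadm4 of 0.0624 to 0.116. The other comparisons gave 0 of the 67, where 0.159% of all genes passed in the exon 1 mutant and 0.0122% between the mutants. At an unadjusted p under 0.05 there were 20 of the 67 in the exon 3 mutant, beside 12.3% of all genes. The exon 1 mutant had 8, beside 8.48%, and the comparison between the mutants had 12, beside 8.48%.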

How the data were processed

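Per the labels and the values, the authors deposited unnormalized counts, 1 whole number for each of 25099 genes in each of 18 libraries. Tools named in the submitters' processing notes are STAR 2.7.6a, edgeR 3.32.1, FastQC 0.11.8, cutadapt 3.4 and Trim Galore 0.6.4. The sources used here give no genome build, no strand setting and no rule for reads that fit several genes, so counts of near-identical copies and overlapping genes are uncertain. Of the members' names, 5 (ctnnd1, cldn1, cdh4, pcdh8 and itga8) are also the RefSeq name (assembly NfurGRZ-RIMD1) of another column. No coordinates are given, since the builds could not be matched.

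From these counts, libraries A and B of a culture were summed, genes were filtered with filterByExpr by genotype and libraries were scaled by TMM. All 10 cultures were fitted together with edgeR 4.0.16 (R 4.3.3, limma 3.58.1, robust quasi-likelihood F test), adjusted over 16354 genes at a threshold of 0.05. The biological coefficient of variation, common to all genes, was 0.248. A prior count of 0.125 entered the fold changes, and each SE was derived from the fold change and its F value. The script was tested on simulated data. DESeq2 1.42.0, other scalings, no filter, other groupings of libraries, a replicate block and leaving out each culture were alternatives. Intervals and limits based on counts cover counting error only.

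Named members were ctnnd2a, any past the test, the 6 with the smallest p per comparison, up to 3 per class with the highest CPM and the 6 with the largest spread among those at 5 CPM or more. Fold changes are given where a member is among the first 3 of these, or exceeds 1.5 SE. The values of some members so named are not reported here, though they are part of the counts. The members, lists and rules were chosen with earlier results of these data known.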

Additional observations from a re-analysis of the deposited data

Results flagged for a closer look

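Of the 39 named members, nectin4 had 1 WT culture apart from the others. WT F9 held 1 count of nectin4 and F1, F4 and FM held 0, so the gap from the highest culture to the next took the whole range (a ratio of 1). The value rests on a single read. When only 1 culture has any read the ratio is always 1, so the usual chance rate of about 1 group in 20 does not apply.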

How the results depend on the processing

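Members past the test numbered 0 in all 3 comparisons as reported. DESeq2 called 3 in the exon 1 mutant (itga9, ctnnd2a and ptk2), 4 in the exon 3 mutant (ctnna2, itga9, itga10 and cdh8) and 5 between the mutants (pcdh15, cdh16, ctnnd2a, cdh8 and ptk2), where it called 253, 507 and 174 of all genes. With 18 libraries as separate samples the counts were 4, 5 and 5 of 43 members, beside 342, 567 and 278 of all 15236 genes. That fit treats technical partners as replicates. In the exon 1 mutant against WT, 1 member, itga9, passed with the 6 WT libraries as separate units, which also treats technical partners as replicates. That fit called 39 of all 16231 genes. In the same comparison itga9 passed with only the 2 genotypes compared and, chosen after seeing the data, without exon 1 library 3A. These fits called 35 of 15906 and 39 of 16255 genes. Leaving out each culture gave 0 to 1 members in the exon 1 mutant against WT and 0 in the other comparisons. All other settings gave 0 members. Over all genes, leaving out a culture gave 5 to 56 calls in the exon 1 mutant (26 as reported), 7 to 38 in the exon 3 mutant (39) and 1 to 8 between the mutants (2).

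The sign turned in 8 of 1232 repeats of a named gene's fold change, none of which passed as reported. With F4 and FM both left out, itga1 in the exon 3 mutant was -0.19, cdh2 in the exon 1 mutant was 0.031 and cdh23 in the exon 1 mutant was 0.023. The other turns came from leaving out 1 culture. Over the repeats that left out 1 culture, itga1 in the exon 3 mutant ran from -0.42 (without exon 3 culture 4) to 0.47, and cldn19 there from -0.14 (without exon 3 culture 3) to 1.34. itga10 between the mutants ran from -0.0081 (without exon 3 culture 3) to 1.09, and cdh2 in the exon 1 mutant from -0.42 to 0.23 (without exon 1 culture 6). For ctnnd2b in the exon 1 mutant the range was -0.28 (without exon 1 culture 6) to 0.62. The cause was not tested. In 1172 repeats sign and call stayed the same, 40 newly passed and 12, all of cadm4 in the exon 3 mutant, no longer passed.

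Culture numbers 3 and 4 occur in both mutants, but the labels do not say that a number marks a shared fish or day, and 2 pairs are too few to check it. With the culture number as a replicate block, 0 members and 0 of all genes were called between the mutants. Every scaling left the median of all genes within 0.1 of 0. Low counts limit the 26 untested members and the 12 tested ones under 5 CPM.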
